A study of Saccharomyces cerevisiae with 4 samples.

Results

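Ergosterol is the main sterol of yeast membranes, with the place that cholesterol has in animal cells. Its synthesis runs from acetyl-CoA through mevalonate and isoprenoid units to squalene, then to lanosterol, and on to ergosterol through a chain of oxygen-dependent steps at the endoplasmic reticulum. The zinc-cluster factors Upc2 and Ecm22 bind the promoters of many of these genes and raise their transcription when sterol is low, and antifungal azoles act on the pathway by inhibiting the product of ERG11. The promoters of 30 named sterol genes were examined here, out of 6002 nuclear protein-coding genes with a known strand. The genes were taken from a list of pathway enzymes, electron donors, esterifying enzymes, regulators and a sterol transport gene, and each promoter was the 500 bp upstream of the start codon.

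Accessible chromatin was mapped by ATAC-seq. The Tn5 transposase inserts adapters into exposed DNA, so reads pile up where nucleosomes are sparse. There were 2 libraries from BY4741 cells deleted for SWC4 (swc4Δ), compared with 2 from wild-type BY4741 cells (WT), all harvested at 30 °C in mid-log growth. Swc4 is a subunit of both the SWR1 chromatin remodeller and the NuA4 histone acetyltransferase. Each library had its own deposited list of peaks, and the labels do not say whether the repeats were separate cultures, so the spread between libraries may be technical.

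The lists held 2826 and 2368 peaks in swc4Δ and 2354 and 2115 in WT. A peak's fold is the authors' ratio of reads at its summit to background. The folds fit the summit pileup plus 1 read, over the background of the library plus 1 read. That background, worked out from the spacing of the folds, was 24.4 and 25.5 reads in swc4Δ and 22.6 and 24.0 in WT. The lowest fold listed was 1.54 and 1.55 in swc4Δ and 1.61 and 1.56 in WT, so a promoter without a peak is below the authors' threshold and is not shown to be closed. All coordinates are those of sacCer3. The deleted gene, SWC4 (YGR002C, VII, 498476 to 499906), had 0 peaks over its body or promoter in each library, WT included, and peaks therefore give no check on the genotype labels.

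The comparison asks whether peaks at sterol promoters differed between cells without and with SWC4. Of the 30 promoters, 19 had a peak in all 4 libraries, 5 had none in any library, and 6 had a peak in 1 to 3 libraries. A promoter was counted as gained if the pair of swc4Δ libraries had a peak there and the WT pair had none, and as lost in the reverse case; 0 of the 30 were gained and 0 were lost. Over all 6002 promoters 5.23% were gained and 1.05% were lost, so few calls were to be had in a list of 30 genes at that background. With chromosomes IV, V, VIII and XI left out, a choice made with earlier results of these data known, 0 of 24 sterol promoters were gained, against 1.96% of all promoters. A peak in all 4 libraries was found at 63.3% of the sterol promoters, against 31.1% of all promoters, and a peak in no library at 16.7%, against 37.4%.

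Sterol promoters with a peak numbered 25 and 19 in swc4Δ and 23 and 21 in WT. The share was 73.3% ± 14.1 (SD, n = 2) in swc4Δ and 73.3% ± 4.71 (SD, n = 2) in WT, a difference of 0 points (two-sided exact permutation p = 1). The smallest p that 2 against 2 libraries allow is 0.33, so no comparison of this kind could pass 0.05. Over all promoters the share was 50.3% ± 8 (SD, n = 2) in swc4Δ and 42.5% ± 5.48 (SD, n = 2) in WT, a difference of 7.83 points (exact permutation p = 0.667). For the sterol genes the 2 swc4Δ libraries lay on either side of both WT libraries, and leaving out swc4Δ replicate 2 or replicate 1 moved the difference to 10 or -10 points.

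**Figure D1:**
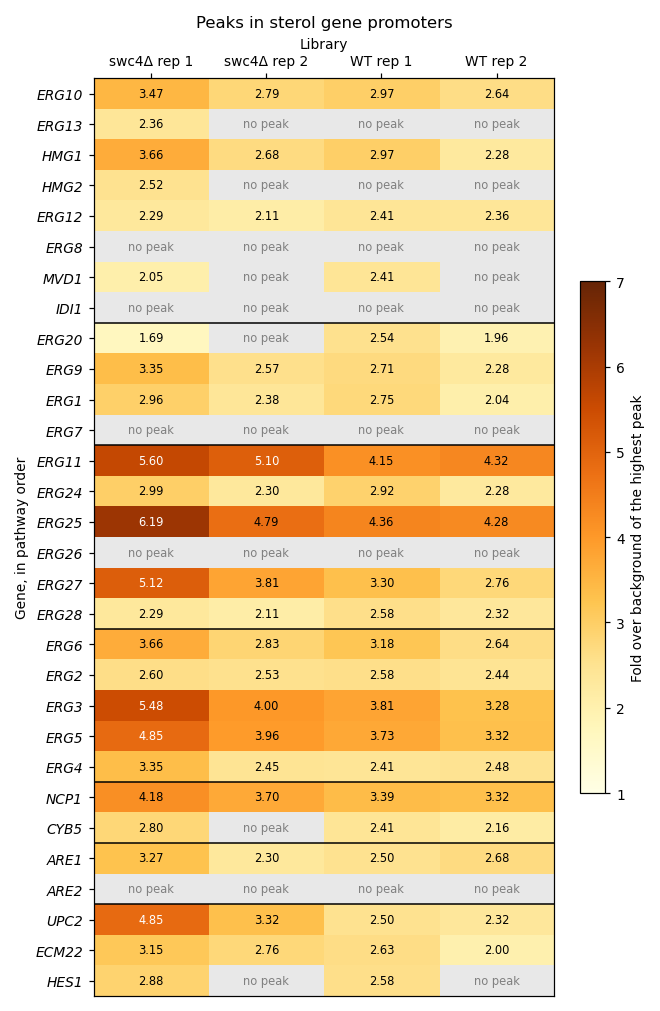
Fold over background of the highest promoter peak for each of the 30 sterol genes (rows, in pathway order, with lines between the stages) in the 2 swc4Δ and 2 WT libraries (columns). Grey cells have no peak over the 500 bp window; ERG8, IDI1, ERG7, ERG26 and ARE2 are grey in all 4 libraries, and ERG25 and ERG11 have the highest folds in the WT libraries.

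Among the mevalonate genes 3 of 8 promoters had a peak in every library, where 31.1% of all promoters had one. The stages hold too few genes for their shares to be compared. ERG10, which codes for the thiolase that joins acetyl-CoA units, had folds of 3.47 and 2.79 in swc4Δ and 2.97 and 2.64 in WT. HMG1, the main HMG-CoA reductase gene and the rate-limiting step of the route, had 3.66 and 2.68 in swc4Δ and 2.97 and 2.28 in WT. At both genes the folds of the genotypes overlapped. ERG12, the mevalonate kinase gene, had 2.29 and 2.11 in swc4Δ and 2.41 and 2.36 in WT. Its summit pileups were 57 and 55 reads in swc4Δ and 56 and 58 in WT. The swc4Δ folds were lower, by less than the counting error of these pileups.

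The other 5 mevalonate genes had peaks in some libraries or in none. ERG13, the HMG-CoA synthase gene, and HMG2, the second HMG-CoA reductase gene, had a peak in swc4Δ replicate 1 only, with a fold of 2.36 for ERG13 and 2.52 for HMG2. The summit pileups, 59 reads for ERG13 and 63 for HMG2, have exact Poisson intervals (95%, counting error only) of 44.9 to 76.1 and 48.4 to 80.6. In the other 3 libraries the closest peak ended at least 1886 bp from either window. MVD1, the decarboxylase gene that makes isopentenyl diphosphate, had a fold of 2.05 in swc4Δ replicate 1 and 2.41 in WT replicate 1, and no peak in replicate 2 of either genotype. ERG8, the phosphomevalonate kinase gene, and IDI1, the isomerase gene, had their closest peak 3030 bp or more from the window in each library.

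From farnesyl diphosphate to lanosterol, 2 of 4 promoters had a peak in every library, against 31.1% of all promoters. ERG20, the farnesyl diphosphate synthase gene, had a fold of 1.69 in swc4Δ replicate 1 and none in replicate 2, against 2.54 and 1.96 in WT. With equal numbers of peaks taken from each list, ERG20 was the only sterol promoter counted as lost, against 1.73% of all promoters. ERG9, which codes for squalene synthase, the first enzyme committed to sterols, had 3.35 and 2.57 in swc4Δ and 2.71 and 2.28 in WT. ERG1, the squalene epoxidase gene that the allylamine antifungals target, had 2.96 and 2.38 in swc4Δ and 2.75 and 2.04 in WT. Each library also had a peak over the first part of the ERG1 gene. In WT replicate 1 it was the highest, with its summit 165 bp inside the gene, and the upstream peak, of fold 2.5, had its summit 403 bp upstream. ERG7, the lanosterol synthase gene, had no peak in any library, with the closest 623 bp away in swc4Δ replicate 2.

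The steps from lanosterol onward had a peak in all 4 libraries at 10 of 11 promoters, against 31.1% of all promoters. ERG25, a sterol methyl oxidase gene (window VII, 610064 to 610563), had folds of 6.19 and 4.79 in swc4Δ and 4.36 and 4.28 in WT. ERG11, the lanosterol demethylase gene (VIII, 121684 to 122183), had 5.60 and 5.10 in swc4Δ and 4.15 and 4.32 in WT. Of the desaturase genes ERG3 (XII, 253361 to 253860) and ERG5, ERG3 had 5.48 and 4.00 in swc4Δ and 3.81 and 3.28 in WT, and ERG5 had 4.85 and 3.96 in swc4Δ and 3.73 and 3.32 in WT. At these 4 genes both swc4Δ folds exceeded both WT folds, as they also did at ERG27, NCP1, UPC2 and ECM22. The share of all promoters with such folds was not counted, so nothing about the sterol genes is read from these folds. When folds were ranked within each library, the genotypes overlapped at ERG25, ERG11, ERG3, ERG5, NCP1 and ECM22. The median fold of all promoters open in every library was itself 3.94 and 3.06 in swc4Δ and 3.09 and 2.76 in WT, which overlapped between the genotypes.

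ERG27, the keto-sterol reductase gene, had 5.12 and 3.81 in swc4Δ and 3.30 and 2.76 in WT. ERG24, the sterol reductase gene that acts after ERG11, had 2.99 and 2.3 in swc4Δ and 2.92 and 2.28 in WT, within the spread between libraries. ERG28, whose product holds the demethylation enzymes together, had 2.29 and 2.11 in swc4Δ and 2.58 and 2.32 in WT. ERG26, the dehydrogenase gene of the same enzyme complex, was the only promoter of these 11 without a peak. The late genes ERG6, ERG2 and ERG4 code for the methyltransferase, the isomerase and the final reductase. ERG6 had 3.66 and 2.83 in swc4Δ and 3.18 and 2.64 in WT, ERG2 had 2.60 and 2.53 in swc4Δ and 2.58 and 2.44 in WT, and ERG4 had 3.35 and 2.45 in swc4Δ and 2.41 and 2.48 in WT. The genotypes overlapped at all 3 genes.

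Outside the chain of enzymes, the electron donor gene NCP1, a reductase that serves Erg11, had 4.18 and 3.70 in swc4Δ and 3.39 and 3.32 in WT. CYB5, which codes for a cytochrome that passes electrons to sterol enzymes, had 2.80 in swc4Δ replicate 1 and no peak in replicate 2, against 2.41 and 2.16 in WT. ARE1 and ARE2 code for the acyltransferases that store sterol as esters. ARE1 had 3.27 and 2.3 in swc4Δ and 2.5 and 2.68 in WT. ARE2 had no peak in its window, with the closest peak 191 and 71 bp away in swc4Δ and 603 and 633 bp away in WT. HES1, an oxysterol-binding protein gene, had 2.88 in swc4Δ replicate 1 and 2.58 in WT replicate 1, and none in replicate 2 of either genotype.

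The regulator UPC2 (YDR213W, window IV, 889251 to 889750) had folds of 4.85 and 3.32 in swc4Δ and 2.5 and 2.32 in WT. At the summit 122 and 87 reads were piled up in swc4Δ and 58 and 57 in WT. The exact Poisson intervals (95%, counting error only) were 101 to 146 and 69.7 to 107 in swc4Δ and 44.0 to 75.0 and 43.2 to 73.9 in WT. The interval of swc4Δ replicate 1 lay above both WT intervals, and that of swc4Δ replicate 2 overlapped both. Its paralogue ECM22 had 3.15 and 2.76 in swc4Δ and 2.63 and 2.00 in WT.

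Folds from different lists are not on a common footing, so each promoter was ranked within each library among the 1867 promoters that had a peak in all 4 libraries. The rank is given as a percentile, with 100 the highest fold. The median percentile of the 19 sterol promoters was 35.4 and 39.2 in swc4Δ and 42.1 and 34.1 in WT, against 49.9 and 50.4 in swc4Δ and 49.9 and 49.8 in WT for all such promoters. Its mean was 37.3 ± 2.63 (SD, n = 2) in swc4Δ and 38.1 ± 5.66 (SD, n = 2) in WT, a difference of -0.803 (exact permutation p = 1). Most of the 19 ranked below the median of the shared promoters in each library.

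ERG25 was at the 91.5 and 91.1 percentile in swc4Δ and 89.7 and 92.0 in WT, and ERG11 at 82.9 and 93.7 in swc4Δ and 84.7 and 92.4 in WT. Both were near the top of every library, with overlapping genotypes. ERG3 stood at 80.2 and 75.4 in swc4Δ and 76.0 and 68.4 in WT. At the other end, ERG12 and ERG28 had the lowest percentiles in swc4Δ, at 4.45 and 9.80 each.

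Both swc4Δ percentiles lay above both WT percentiles at 3 of the 19 promoters (15.8%), against 24.4% of the 1867, and below them at 5 (26.3%), against 27.2%. UPC2 stood at 68.2 and 57.6 in swc4Δ and 19.2 and 25.3 in WT, a difference of 40.6 points (exact permutation p = 0.33), and 27 of the 1867 promoters had a larger positive difference. ERG27 (XII, 341310 to 341809) stood at 73.6 and 70.3 in swc4Δ and 60.1 and 49.8 in WT, a difference of 17.0 points. ERG9 (VIII, 484345 to 484844) stood at 32.2 and 31.3 in swc4Δ and 30.6 and 22.8 in WT. The genotypes did not overlap at these 3 promoters. Any promoter without overlap has an exact permutation p of 0.33, the smallest possible, so the p adds no support.

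The 5 promoters with lower percentiles in swc4Δ were ERG28, ERG12, ERG24, ERG6 and ERG10. ERG28 (V, 238017 to 238516) stood at 4.45 and 9.80 in swc4Δ and 23.7 and 25.3 in WT, a difference of -17.4 points. ERG12 (XIII, 683967 to 684466) stood at 4.45 and 9.80 in swc4Δ and 14.7 and 27.2 in WT, a difference of -13.9 points. ERG24 (XIV, 110412 to 110911) stood at 21.8 and 17.1 in swc4Δ and 42.1 and 22.8 in WT. The differences were -6.55 points at ERG6 and -5.95 points at ERG10. The exact permutation p of 0.33 at each of the 5 again follows from the lack of overlap by which they were picked.

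**Figure D2:**
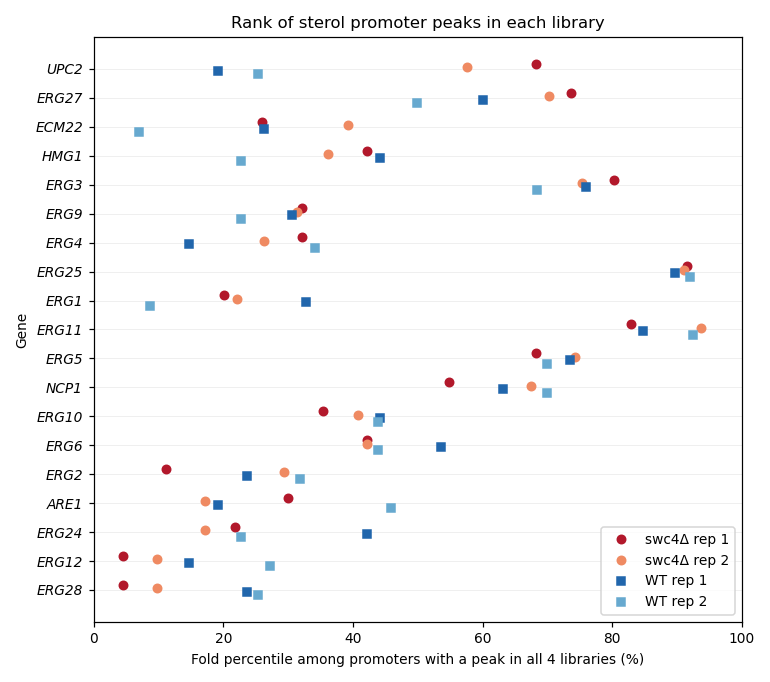
Fold percentile (horizontal axis) of the 19 sterol promoters with a peak in every library, among the 1867 such promoters of the genome, in swc4Δ (circles) and WT (squares), sorted by the difference between genotypes. UPC2 shows the widest separation, at 68.2 and 57.6 in swc4Δ against 19.2 and 25.3 in WT, while ERG25 and ERG11 lie near the top in all 4 libraries.

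The ranks also moved with whole chromosomes. Over the promoters open in every library the median difference in percentile, swc4Δ minus WT, was 9.72 on chromosome IV, which holds UPC2, and 1.5 on XII, which holds ERG27, ERG3 and ECM22. It was -6.01 on XIII, which holds HMG1, ERG12, ERG6, ERG2 and ERG5, and -7.97 on XIV, which holds ERG24. On V, which holds ERG28, it was -0.348, and on VIII, which holds ERG9, ERG11 and NCP1, 0.362. The largest was 19.8 on XI, which holds no listed sterol gene. With folds divided by the median of their chromosome and library, UPC2 stood at 66.8 and 42.2 in swc4Δ and 20.4 and 24.6 in WT, a difference of 32.0 points, and 4 of the 246 shared promoters on IV had a larger unscaled difference. ERG27 had a scaled difference of 17.6 points, ERG28 one of -14.3 and ERG9 one of 0.0134.

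After that scaling both swc4Δ percentiles were higher at 5 sterol promoters (26.3%; UPC2, ERG27, ERG25, ERG3 and ERG4), against 22.3% of all, and lower at 1 (5.26%; ERG28), against 23.8%. ERG24, ERG6 and ERG10 differed by -0.321, -1.93 and -0.844 points, with overlapping genotypes. ERG12 differed by -12.7 points, at 6.83 and 20.5 in swc4Δ and 19.4 and 33.3 in WT, which also overlapped. UPC2, ERG27 and ERG28 had separate genotypes under both rankings. For ERG28 this rests on summit pileups of 57 and 55 reads in swc4Δ and 60 and 57 in WT, which differ by less than counting error. With chromosomes IV, V, VIII and XI left out, 14 sterol promoters could be ranked. Both swc4Δ percentiles were then higher at 4 of them (ECM22, ERG25, ERG27 and ERG3), against 24.4% of all, and lower at 1 (ERG12), against 23.7%.

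**Figure D3:**
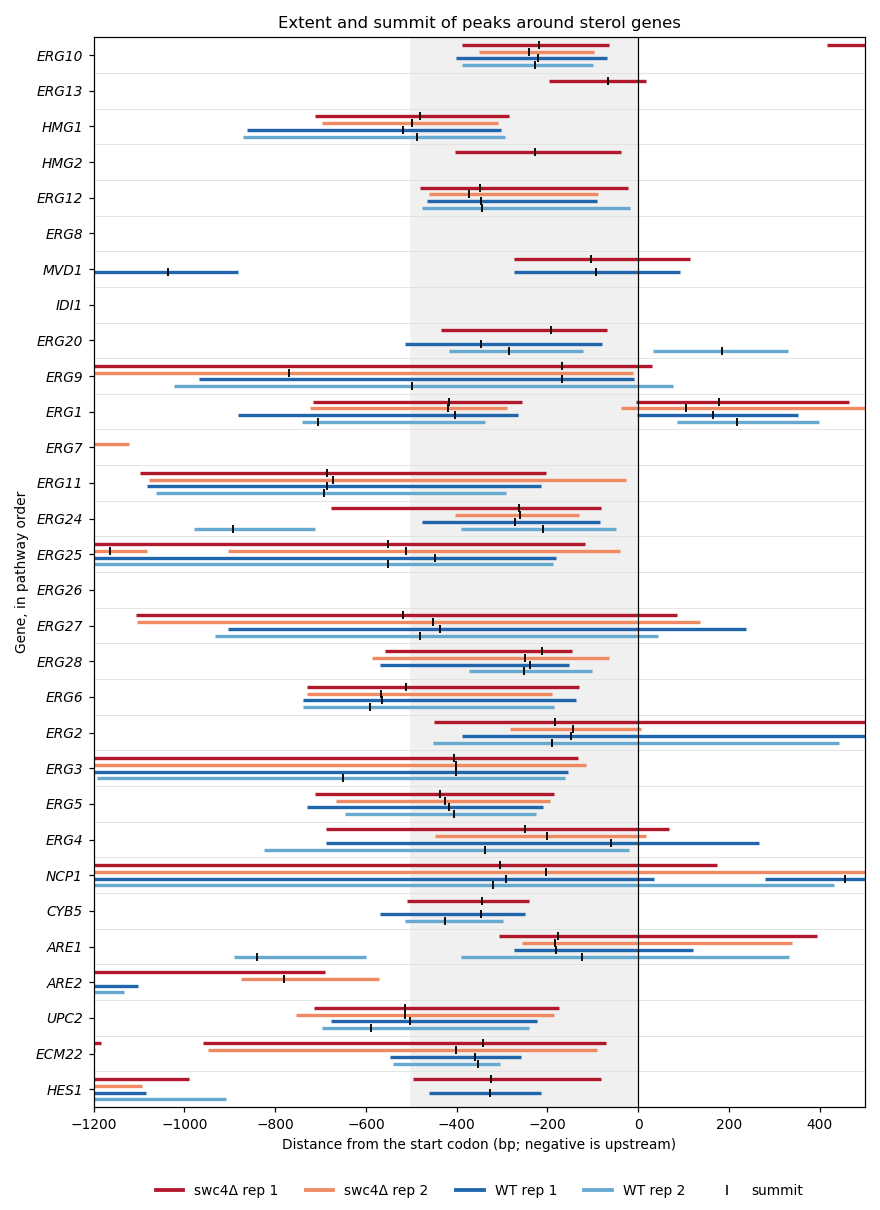
Extent (bars) and summits (black ticks) of all peaks around the start codon (0 on the horizontal axis, in bp, upstream to the left) of the 30 sterol genes, in swc4Δ (red shades) and WT (blue shades); the 500 bp window is shaded. The summits of ERG10, ERG11 and ERG5 nearly coincide in the 4 libraries, and the ECM22 peak is longer in both swc4Δ libraries, at 891 and 859 bp, than in WT, at 290 and 238 bp.

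Summit positions overlapped between the genotypes. The median distance from the start codon to the summit of the highest peak, over the 19 promoters, was 348 and 401 bp in swc4Δ and 347 and 405 bp in WT. The mean was 374 ± 37.5 bp (SD, n = 2) in swc4Δ and 376 ± 41.0 bp (SD, n = 2) in WT (exact permutation p = 1). For all 1867 promoters the median was 318 and 322 bp in swc4Δ and 319 and 326 bp in WT. Over the 4 libraries the summits of a sterol promoter spread by a median of 63 bp, the same as the 63 bp of all promoters.

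The tightest was ERG11, whose summits lay 686 and 672 bp upstream in swc4Δ and 686 and 692 bp in WT, outside the 500 bp window but within the 866 bp gap to its neighbour YHR007C-A. ERG10 had summits at 219 and 241 bp in swc4Δ and 220 and 227 bp in WT, and ERG12 at 348 and 374 bp in swc4Δ and 347 and 344 bp in WT. For UPC2 the summits lay 515 and 514 bp upstream in swc4Δ and 503 and 589 bp in WT, within the 839 bp gap to TCP1. HMG1 was alike, at 482 and 498 bp in swc4Δ and 518 and 488 bp in WT. At ERG11 and UPC2 every summit lay outside the window, which caught the side of the peak nearer to the gene.

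Some summits lay beyond the gap to the neighbouring gene, in some or all libraries. ERG27 lies 221 bp from MIM2, and its summits lay 518 and 453 bp upstream in swc4Δ and 436 and 481 bp in WT. ERG6 lies 171 bp from MIN4, with summits at 511 and 566 bp in swc4Δ and 565 and 592 bp in WT. ERG9 lies 244 bp from PTH1, and its summit was 167 and 770 bp upstream in swc4Δ and 169 and 499 bp in WT, within a peak of 1361 and 1303 bp in swc4Δ and 958 and 1100 bp in WT. ERG2 lies 80 bp from the non-coding RNA gene RNA170, with summits at 184 and 144 bp in swc4Δ and 149 and 191 bp in WT. ERG1 lies 405 bp from ATF2, with upstream summits at 418 and 420 bp in swc4Δ and 403 and 706 bp in WT. Such peaks cannot be assigned to the sterol gene alone. Of the sterol promoters with a peak, 20 of 25 and 14 of 19 had the summit inside the window in swc4Δ, and 18 of 23 and 15 of 21 in WT. Over all promoters with a peak the share was 74.8% and 70.8% in swc4Δ and 72.1% and 67.6% in WT.

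Occupancy was also counted by the orientation of the upstream neighbour. Peaks in all 4 libraries were found at 7 of the 11 promoters whose neighbour is transcribed away from them and at 12 of the 19 whose neighbour runs in the same direction. The shares over all promoters of each orientation were not counted, so nothing about the sterol genes is read from these counts. No peak overlapped the windows of a pair of sterol genes, so sterol genes did not share peaks. A peak may still belong to another neighbouring gene, as at ERG27, ERG6, ERG9, ERG2 and ERG1.

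Peak widths were compared over the same 19 promoters. The median width was 701 and 542 bp in swc4Δ and 562 and 579 bp in WT, with a mean of 622 ± 112 bp (SD, n = 2) in swc4Δ and 570 ± 12 bp (SD, n = 2) in WT (exact permutation p = 1). Both swc4Δ peaks were wider than both WT peaks at 7 promoters (36.8%), against 36.4% of all, and narrower at 2 (10.5%), against 11.1%. The 7 were ECM22, ERG9, ERG3, UPC2, ERG11, ERG1 and ERG27, and the narrower were HMG1 and ERG4. For ERG1 the WT replicate 1 width is that of the peak inside the gene. The upstream peak of that library was 620 bp wide, against 461 and 434 bp in swc4Δ. Compared on upstream peaks alone, ERG1 would not be counted as wider. The fold percentile of ERG1 in WT replicate 1, 32.8, was also that of the peak inside the gene. Its upstream peak there had the same fold as the UPC2 peak, which stood at 19.2. ERG1 stood at 20.1 and 22.1 in swc4Δ and 8.73 in WT replicate 2. On upstream peaks it would thus lie narrowly higher in swc4Δ, which the counts of ranks do not include.

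The widest separation was at ECM22 (YLR228C, window XII, 602464 to 602963), the paralogue of UPC2. Its peak was 891 and 859 bp wide in swc4Δ, reaching 960 and 949 bp upstream, against 290 and 238 bp in WT, reaching 548 and 541 bp upstream. The mean swc4Δ width was 3.31 times the mean WT width, where the median promoter had a ratio of 1.11 and 48 of 1867 had a larger ratio. Its summits overlapped, at 343 and 401 bp in swc4Δ and 360 and 353 bp in WT. Its fold percentiles overlapped too, at 26.0 and 39.2 in swc4Δ and 26.2 and 6.99 in WT. A separate peak of the same gap, 1748 bp long to CDC42, had its summit 1310 and 1310 bp upstream in swc4Δ and 1318 and 1309 bp in WT. HMG1 was the opposite case, at 429 and 390 bp in swc4Δ and 562 and 579 bp in WT.

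**Figure D4:**
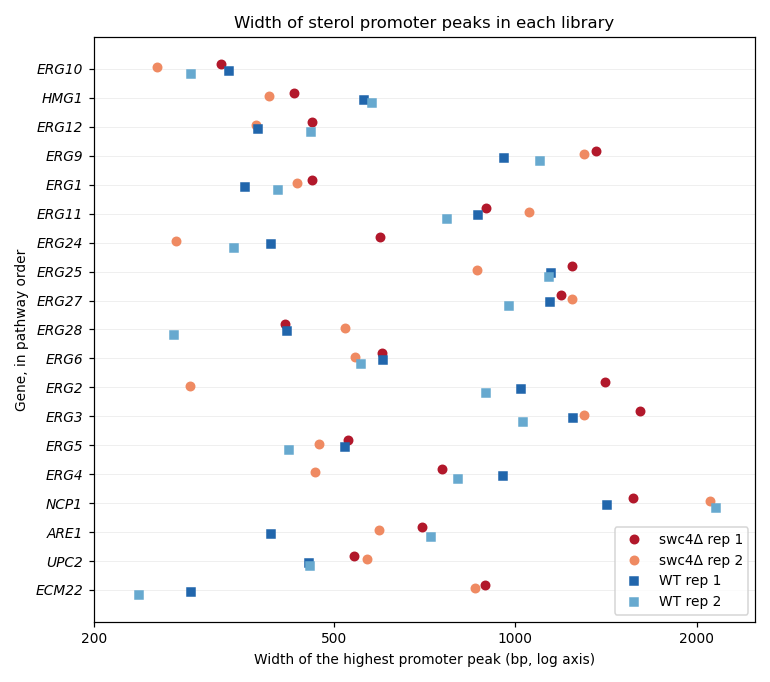
Width in bp (horizontal log axis) of the highest promoter peak at the 19 sterol promoters with a peak in every library, in swc4Δ (circles) and WT (squares), in pathway order. ECM22 has the widest gap between genotypes, with 891 and 859 bp in swc4Δ and 290 and 238 bp in WT, and HMG1 and ERG4 lie the other way.

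The share of sterol genes covered by a peak was read every 10 bp. Its highest value was 76.7% and 56.7% in swc4Δ and 73.3% and 70.0% in WT, all between 370 and 200 bp upstream of the start codon. Over all genes the highest share was 44.7% and 34.0% in swc4Δ and 35.2% and 27.2% in WT, between 300 and 230 bp upstream. Several positions shared the highest value in some libraries, so no offset between sterol genes and all genes is read from them. At the start codon the sterol genes had 30.0% and 20.0% in swc4Δ and 23.3% and 16.7% in WT. Mean coverage of the 500 bp window was 61.0% and 46.1% in swc4Δ and 52.4% and 46.4% in WT for sterol genes. For all promoters it was 38.1% and 29.6% in swc4Δ and 30.4% and 23.9% in WT. Both WT values of the sterol genes lay between those of swc4Δ.

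**Figure D5:**
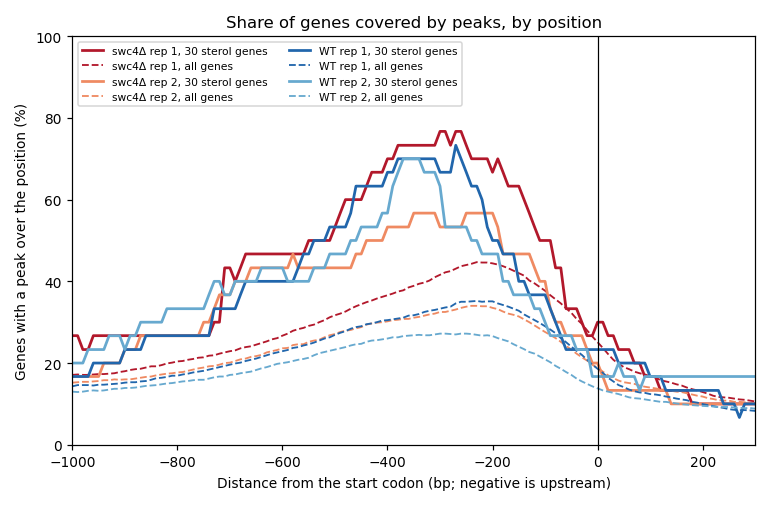
Percentage of genes with a peak over each position (vertical axis) by distance from the start codon in bp, for the 30 sterol genes (solid lines) and all 6002 genes (dashed lines) in swc4Δ (red shades) and WT (blue shades). The sterol lines lie above the dashed line of the same library between 500 and 100 bp upstream, and the 4 sterol lines cross each other.

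The authors' genotype lists, 1 per genotype and without replicates, covered 24 of the 30 sterol promoters in swc4Δ and 14 in WT. The swc4Δ list held 2602 regions and covered 54.3% of all promoters, and the WT list held 1002 and covered 22.0%, so their counts cannot be compared between genotypes. UPC2, ECM22, ERG10, ERG20, ERG24, ERG28 and CYB5 were in the swc4Δ list and not in the WT list, although each had a peak in both WT libraries. IDI1 and ARE2 were in the swc4Δ list without a peak in either swc4Δ library.

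A wider list of 36 sterol genes for uptake, transport, ester hydrolysis, regulation and isoprenoid branches was counted in the same way. Of these, 16 had a peak in all 4 libraries, 10 had none, 2 were gained and 0 were lost. The gained share, 5.56%, is at the background of 5.23% over all promoters, so nothing about the list is read from it. The gained promoters were those of LAM1 and YSP2, related genes for sterol transfer at membrane contact sites. These genes lie on chromosomes VIII and IV. With chromosomes IV, V, VIII and XI left out, only 1.96% of all promoters were gained. LAM1 (window VIII, 406603 to 407102) had folds of 2.21 and 1.89 in swc4Δ, with summits 155 and 180 bp upstream, and no WT peak within 5347 bp. YSP2 (window IV, 1124926 to 1125425) had 3.07 and 2.60 in swc4Δ, but the summits lay 1222 and 1217 bp upstream, beyond the 508 bp gap to SKP1, and WT peaks came within 450 and 477 bp of the window.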

How the data were processed

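Tn5 libraries of 2 swc4Δ and 2 WT yeast samples were used as peak lists deposited by the authors. Per the submitters' processing notes, the tools were Picard 2.18.7, deepTools 1.5.11, Bowtie2 2.3.1, SAMtools 1.4 and Trim Galore 0.5.0, with the sacCer3 build. For the peak caller, the read shift and multi-mapped reads, the method is not given in the sources used here. The authors' lists give each peak a fold (ratio over background), a deposited −log10 p-value and −log10 q-value, and a summit. The genotype lists give a score deposited by the authors, on an unstated scale. Folds fell on evenly spaced steps of 1 read, which gave the background and summit pileups; Poisson intervals cover counting error only.

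Genes came from the RefSeq R64 table, in which protein-coding bounds are coding bounds. A promoter had a peak at 1 bp of overlap or more; its highest fold counted. Libraries were grouped by label. Library values were compared by exact permutation tests, and other values described, with Python 3.11.15, NumPy 2.4.6 and pandas 2.3.3. The procedure was tested on simulated data. All members were named; coordinates were given for members with the highest ranks and largest differences. Members, lists and rules were chosen with earlier results of these data known. Alternatives were a stricter −log10 q of 5, equal peak numbers, overlap of 50%, summit inside the window, 300 bp windows, windows stopped at the nearest gene, each library left out, a replicate block, leaving out chromosomes IV, V, VIII and XI, the nearest summit, and folds scaled by chromosome. Sequences were not used here.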

Additional observations from a re-analysis of the deposited data

How the results depend on the processing

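No comparison of libraries could pass 0.05, so only directions and sizes can be followed. The difference in the share of sterol promoters with a peak, 0 points, was 1.67 at the stricter threshold, -3.33 with equal numbers of peaks, 5 with 50% overlap and 3.33 with 300 bp windows, and ran between -10 and 10 with 1 library left out. Gained promoters stayed at 0 except without swc4Δ replicate 2, where ERG13 and HMG2 made 2, against 12% of all promoters in that setting; leaving out 1 library gave 0 to 2. Lost promoters numbered 1 with equal numbers of peaks (ERG20), against 1.73% of all promoters in that setting. With 1 library left out they numbered 0 to 2. The 2 were ERG20 and CYB5 without swc4Δ replicate 1, against 4.52% of all promoters.

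The difference in median summit distance, -1.5 bp, was -19.2 with summits inside the window, 22 with 50% overlap and 10.2 with 300 bp windows. It was 24.2 with windows stopped at the nearest gene, 22.5 without chromosomes IV, V, VIII and XI, and -31 to 27.5 with 1 library left out. The difference in median width, 51 bp, was 136 with summits inside the window, -42.5 at the stricter threshold and -99.8 with 300 bp windows. It ran from -28.5 to 62.5 with 1 library left out. The difference in median fold percentile, -0.803, was -2.49 with 300 bp windows and -2.05 at the stricter threshold. It was 1.51 with folds scaled by chromosome, 0.552 with windows stopped at the nearest gene and 0.461 without the 4 chromosomes. With 1 library left out it ran from -4.91 to 2.88. Promoters with both swc4Δ percentiles higher numbered 3, against 24.4% of all promoters. They numbered 5 after scaling, against 22.3%, and 1 of 10 (ECM22) with summits inside the window, against 25.4%. With 1 library left out they numbered 4 to 7, where the share of all promoters was 32.9% to 37.5%. Promoters with both percentiles lower numbered 5, against 27.2% of all promoters. They numbered 1 after scaling, against 23.8%, and 3 of 10 with summits inside, against 26%. Without the 4 chromosomes they numbered 1, against 23.7%. With 1 library left out they numbered 6 to 10, where the share of all promoters was 36.8% to 41.6%. The promoters that could be ranked fell to 10 with summits inside and to 14 without the 4 chromosomes. The cause of the other moves was not tested.

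Replicate numbers were shared only as numbers: the difference between replicates 1 and 2 correlated at -0.0458 between genotypes over 1867 promoters. With the replicate block the differences were again 0 points, -1.5 bp, 51 bp and -0.803, and gained and lost promoters 0 and 0. The lowest summit listed had 38 and 40 reads in swc4Δ and 37 and 38 in WT, and how depth sets which weak promoters are listed was not tested.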
